A study of Mus musculus with 6 samples.

Results

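The p53 target genes described here are 10 genes that p53 switches on under stress: Mdm2, Ccng1, Bax, Phlda3, Trp53inp1, Sesn1, Sesn2, Eda2r, Zmat3 and Aen. They were taken by gene symbol from the 31054 features of the deposited count matrices, and all 10 had a row. The counts came from droplet single-cell RNA sequencing of lungs from male C57BL/6 mice aged 21 months, with 1 library per mouse. The 3 libraries labelled p16-DTR came from mice that carry p16-CreERT2 and R26-LSL-DTR, an arrangement in which Cre made from the p16 locus lets the diphtheria toxin receptor be expressed once tamoxifen has been given. The 3 control libraries came from mice with p16-CreERT2 alone. All 6 mice were given tamoxifen for 5 days and, 2 weeks later, diphtheria toxin for 5 days, and were left to recover for 2 weeks. Lungs were digested with liberase, and 20000 CD45-negative and 9000 CD45-positive cells were sorted and pooled for each library, so the balance of immune and other cells was set by the sort. The questions were in which lung cells each p53 target is found, and whether its level differed between the lungs labelled p16-DTR and the control lungs.

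The p53 protein is a transcription factor that is held low in resting cells and builds up after DNA damage and other stresses. It binds a response element made of paired half-sites in or near its target genes. Its targets include its own inhibitor, genes that stop the cell cycle, genes that promote cell death, and genes that limit growth and oxidative stress. Some of them, such as Cdkn1a, also stay high in senescent cells, in which Cdkn2a, the gene of p16, is often expressed. Most targets are also transcribed without p53, so a level measured here is not by itself a measure of p53 activity.

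The libraries held 13482 to 17332 cell barcodes and 254200305 to 344421685 UMIs (unique molecular identifiers, each counting 1 captured RNA molecule), with a median of 16587.5 to 18149 UMIs per barcode. Any 2 libraries shared 59 to 94 barcode sequences. Retained cells were assigned by marker genes, none of them a p53 target gene of this list, to 4 lineages and 30 classes, and 79.4% to 83.3% of them fell in a class. Cells in several lineage gates, 4.91% to 5.91% of retained cells, were left out, and doublets within a lineage were not removed. Levels are CPM, the UMIs of a gene per 1000000 UMIs of the summed cells, with SD over 6 libraries unless another n is given, and 19 classes with at least 50 cells in every library were tested. Cdkn2a went against the direction of the labels: over all cells it stood at 7.1, 8.57 and 7.31 CPM under the p16-DTR label and 1.15, 2.6 and 2.84 among controls, so the libraries with the p16-DTR label are called by that label throughout.

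Where RefSeq gives a promoter window, it was searched for the p53 response element, 2 half-sites of 10 bases with up to 3 bases between them and up to 2 mismatches in all, on both strands of the 250 bases before the start. The core C and the core G of each half-site had to match. Of the 10 genes, 8 had a window, Trp53inp1 and Zmat3 having none, and 3 of the 8 held an element, against 1.25% of 27025 genes with a window and 1.09% of all 32851 windows. These 3 stretches are shown because they are the points in the promoters at which the letters come closest to the binding site of p53. Capitals mark the 2 half-sites, and each stretch reads 5′ to 3′ on the strand of its gene in the GRCm38.p6 build.
Ccng1: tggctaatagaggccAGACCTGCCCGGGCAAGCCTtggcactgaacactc
Bax: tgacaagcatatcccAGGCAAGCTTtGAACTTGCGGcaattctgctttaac
Sesn1: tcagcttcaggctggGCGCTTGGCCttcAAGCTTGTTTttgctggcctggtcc
The Ccng1 stretch lies at chr11:40755447-40755496 on the minus strand, and its element begins 195 bases before the start, with 1 mismatch and no spacer. The Bax stretch, chr7:45467064-45467114 on the minus strand, has its element 201 bases before the start, with 2 mismatches and a spacer of 1 base. The Sesn1 stretch, chr10:41887238-41887290 on the plus strand, belongs to the second of the 2 starts with a window, and its element lies 186 bases before it, with 2 mismatches and a spacer of 3 bases. At least 1 half-site without mismatch was found in 5 of the 8 genes (Mdm2, Ccng1, Bax, Sesn1 and Aen), against 8.20% of the genes with a window. The windows end at the start region, so elements in introns, where several p53 targets carry theirs, lay outside the search.

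The levels of the p53 targets followed cell type, and no single class was highest for all of them. Over the 19 classes, aerocytes, the large capillary endothelial cells of the alveolus, had the highest mean level of 4 of the 10 genes (Bax, Phlda3, Zmat3 and Aen) and were among the top 2 classes for 5. Ciliated cells led for Mdm2, CD4 T cells for Ccng1 and Trp53inp1, B cells for Sesn1, neutrophils for Sesn2 and adventitial fibroblasts for Eda2r. This order is of CPM by library size, without the TMM scaling factors used in the tests. Against TMM factors, library size moved the median log2 difference over all genes by 0.04 in aerocytes and 0.08 in CD4 T cells. In neutrophils it moved by -0.82, in alveolar type 2 cells by -0.32 and in classical monocytes by -0.24. The order with TMM factors was not worked out, so places beside such classes can depend on the scaling. Each class was also tested against the mean of the other 18 on the log scale. Of 190 pairs of a gene and a class, 149 were called at an adjusted p under 0.05 (70 higher, 79 lower), beside 67.1% of all 320948 pairs of a gene and a class, so differences between classes were the rule for genes in general. Of the 149, 3 changed sign with another setting: Aen in peribronchial fibroblasts (-0.23, adjusted p 0.0423) was at 0.29 with best-scoring classes (adjusted p 0.00214), Sesn1 in CD8 T cells (0.19) at -0.10 with best-scoring classes, and Mdm2 in lymphatic cells (-0.17) at 0.11 with library size alone.

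**Figure D1:**
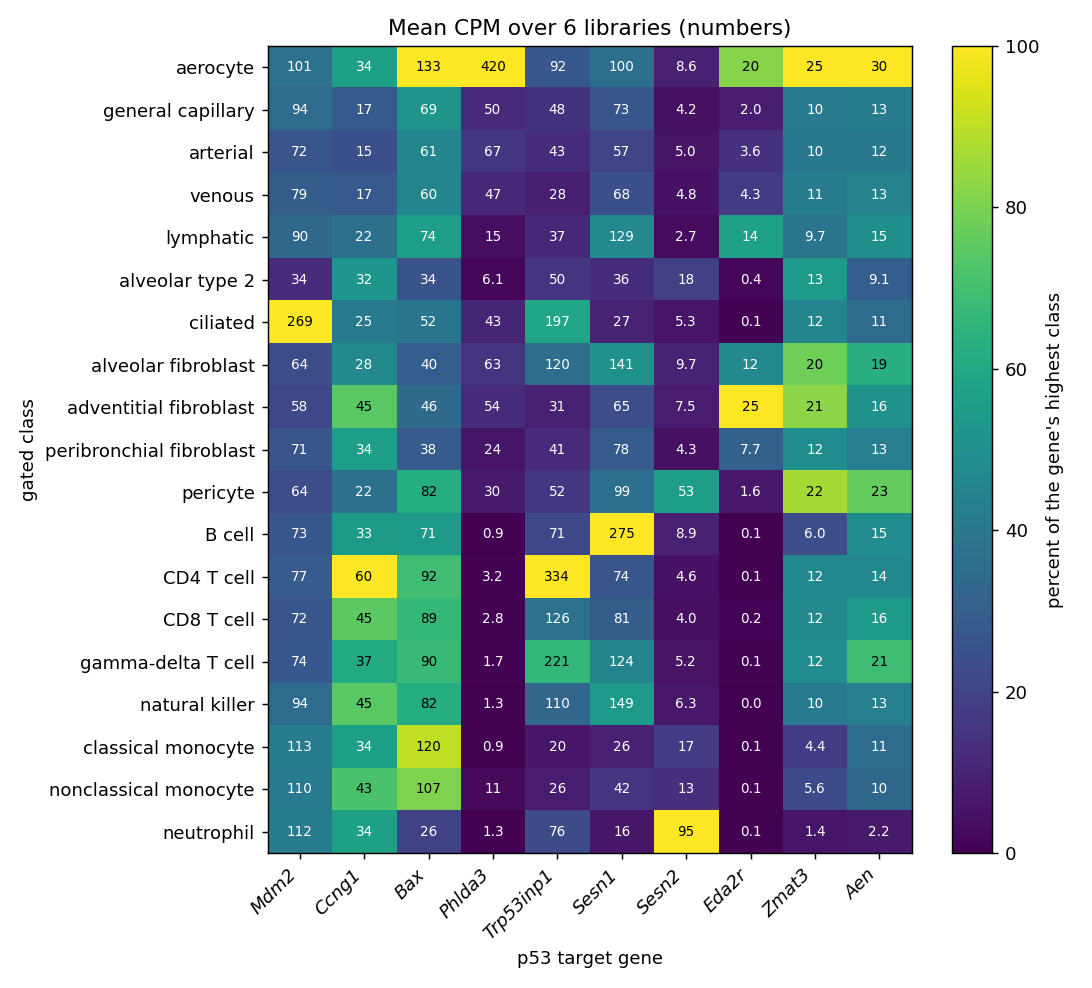
Heat map of the 10 p53 target genes (columns) over the 19 tested classes (rows); the numbers are mean CPM over 6 libraries and the colour is the percent of that gene's highest class. The brightest cells lie in different rows, with aerocytes brightest for Bax, Phlda3, Zmat3 and Aen, ciliated cells for Mdm2 and neutrophils for Sesn2.

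Mdm2 (ENSMUSG00000020184, chromosome 10, 117688875 to 117710758, minus strand) encodes the ubiquitin ligase that marks p53 for degradation, the main negative feedback of the pathway. It was highest in ciliated cells, at 274, 266 and 245 CPM under the p16-DTR label and 253, 297 and 279 among controls. All 6 ciliated values lay above every value of the next class, classical monocytes, at 113 ± 7.78, and the difference from the mean of the other classes was 1.62 (standard error 0.05) in log2 units. Classical monocytes, neutrophils, nonclassical monocytes and aerocytes overlapped with their neighbours in the order. Alveolar type 2 cells, the epithelial cells that make surfactant, had the lowest level, 33.8 ± 4.36 CPM, below every library of every other class.

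Ccng1 (ENSMUSG00000020326, chromosome 11, 40748552 to 40755311, minus strand) encodes cyclin G1, which brings a phosphatase to Mdm2 and so takes part in the same feedback. CD4 T cells had 60.4 ± 5.61 CPM, 0.95 log2 units above the mean of the other classes, and overlapped with CD8 T cells at 45.1 ± 5.41. The low end held 3 endothelial classes, general capillary cells at 17.1 ± 0.722, venous cells at 17 ± 2.35 and arterial cells at 14.8 ± 3.33. None of the 6 general capillary values reached those of lymphatic cells, the next class up.

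Bax (ENSMUSG00000003873, chromosome 7, 45461697 to 45466898, minus strand) encodes the pore-forming protein that opens the outer membrane of mitochondria in apoptosis. Aerocytes had 146, 134 and 150.2 CPM under the p16-DTR label and 120.1, 134 and 115 among controls, 1.03 (standard error 0.05) log2 units above the other classes. Classical monocytes, at 120.4 ± 2.71, overlapped with aerocytes, while nonclassical monocytes, at 107 ± 3.92, lay below classical monocytes in all libraries. Neutrophils were lowest, at 25.5 ± 2.25 CPM. Against TMM factors, library size moved the median over all genes by -0.82 in neutrophils and -0.24 in classical monocytes. The places of these classes in the Bax order can thus depend on the scaling.

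Aen (ENSMUSG00000030609, chromosome 7, 78895854 to 78911209, plus strand), which encodes a nuclease that acts in apoptosis, was also highest in aerocytes. Its values there were 30.5, 29.7 and 35.8 CPM under the p16-DTR label and 27.4, 30.7 and 27.4 among controls, 1.23 (standard error 0.07) log2 units above the other classes. Pericytes followed at 23.1 ± 3.03 and overlapped with aerocytes. Neutrophils had 2.23 ± 0.637, below every library of every other class.

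Eda2r (ENSMUSG00000034457, chromosome X, 97333840 to 97377216, minus strand) encodes a receptor of the tumour necrosis factor receptor family that binds ectodysplasin A2. It was found in few classes. Adventitial fibroblasts had 25, 25.1 and 24.3 CPM under the p16-DTR label and 25.7, 26.4 and 22 among controls, and aerocytes had 25.5, 16.6 and 24.4 CPM under the p16-DTR label and 17.7, 23.8 and 13.4 among controls. The ranges of these 2 classes overlapped, and lymphatic cells, at 14.1 ± 4.52, and alveolar fibroblasts, at 11.6 ± 2.62, came next. Each immune class had a mean under 0.3 CPM: in 1972 CD4 T cells of 6 libraries, 2 Eda2r UMIs were counted, against 1232 in 2971 aerocytes. The test gave 5.19 (standard error 0.16) for adventitial fibroblasts and 4.84 (standard error 0.17) for aerocytes in log2 units, both against a mean in which most classes are close to 0.

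Phlda3 (ENSMUSG00000041801, chromosome 1, 135766119 to 135769136, plus strand) encodes a small pleckstrin homology domain protein that competes with the kinase Akt for membrane lipids. Its values in aerocytes were 479, 433 and 439 CPM under the p16-DTR label and 409, 418 and 343 among controls. The lowest of these lay far above the highest of the next class, arterial cells, which had 67.3 ± 17.4 CPM against 420.2 ± 45.1 in aerocytes, a ratio of means of 6.25. General capillary cells, the other capillary class of the lung, had 50.2 ± 8.68. Markers of alveolar type 1 cells, the neighbouring epithelium, summed to 978 to 1049.8 CPM in aerocytes under the p16-DTR label and to 1030.1 to 1121 among controls, and their part in the aerocyte level was not tested. Immune classes were near the floor, from 0.881 ± 0.367 in classical monocytes to 10.5 ± 2.63 in nonclassical monocytes.

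Trp53inp1 (ENSMUSG00000028211, chromosome 4, 11156431 to 11174379, plus strand) encodes a nuclear protein that acts with p53 in stress responses and in autophagy. Among the tested classes, CD4 T cells had the highest level, 334 ± 69.9 CPM, 2.37 (standard error 0.08) log2 units above the other classes. Gamma-delta T cells, at 221 ± 47.3, and ciliated cells, at 197 ± 24.6, came next and overlapped with each other, the former also with CD4 T cells, and no library of either fell as low as the highest CD8 T cell value, with CD8 T cells at 126 ± 14.6. Plasma cells, the antibody-secreting form of B cells, were too few to test, at 10 to 20 cells a library. Their values were 1155, 1309 and 1085 CPM under the p16-DTR label and 1026, 991 and 1091 among controls, above every tested class in every library and above the 70.8 ± 6.46 of B cells.

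Zmat3 (ENSMUSG00000027663, chromosome 3, 32334792 to 32366014, minus strand) encodes a zinc finger protein that binds RNA and acts on splicing. Aerocytes had 28.3, 26.3 and 29.2 CPM under the p16-DTR label and 21.1, 24.7 and 20.8 among controls, 1.32 (standard error 0.08) log2 units above the other classes. Pericytes at 21.7 ± 2.93, adventitial fibroblasts at 20.7 ± 2.43 and alveolar fibroblasts at 19.6 ± 3.87 each overlapped with the class above. Neutrophils had 1.43 ± 0.68, below all others.

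Sesn1 and Sesn2 encode sestrins, stress proteins that restrain the growth kinase mTORC1, and the 2 genes had different orders of classes. Sesn1 (ENSMUSG00000038332, chromosome 10, 41809935 to 41908424, plus strand) was highest in B cells, at 271, 299.9 and 305 CPM under the p16-DTR label and 218, 283 and 271 among controls. None of these values was as low as those of natural killer cells, the next class, at 149 ± 15.1, and the B cell difference was 2.05 (standard error 0.06) log2 units. Neutrophils had the lowest Sesn1 level in CPM by library size, 16.4 ± 3.32, a place not worked out with TMM factors. Sesn2 (ENSMUSG00000028893, chromosome 4, 132492032 to 132510501, minus strand) had its highest level in those same cells, at 93, 97.9 and 90.3 CPM under the p16-DTR label and 100.1, 98 and 93.6 among controls. Pericytes, at 49.5, 55.2 and 68.5 CPM under the p16-DTR label and 48.9, 44.1 and 53.9 among controls, were separated from neutrophils above and from alveolar type 2 cells below, which had 18.2 ± 3.73. The Sesn2 test gave 4.54 (standard error 0.08) log2 units for neutrophils with TMM factors and 3.69 with library size alone, a scaling that lowered the median over all genes in neutrophils by 0.82, and 2.52 (standard error 0.13) for pericytes.

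**Figure D2:**
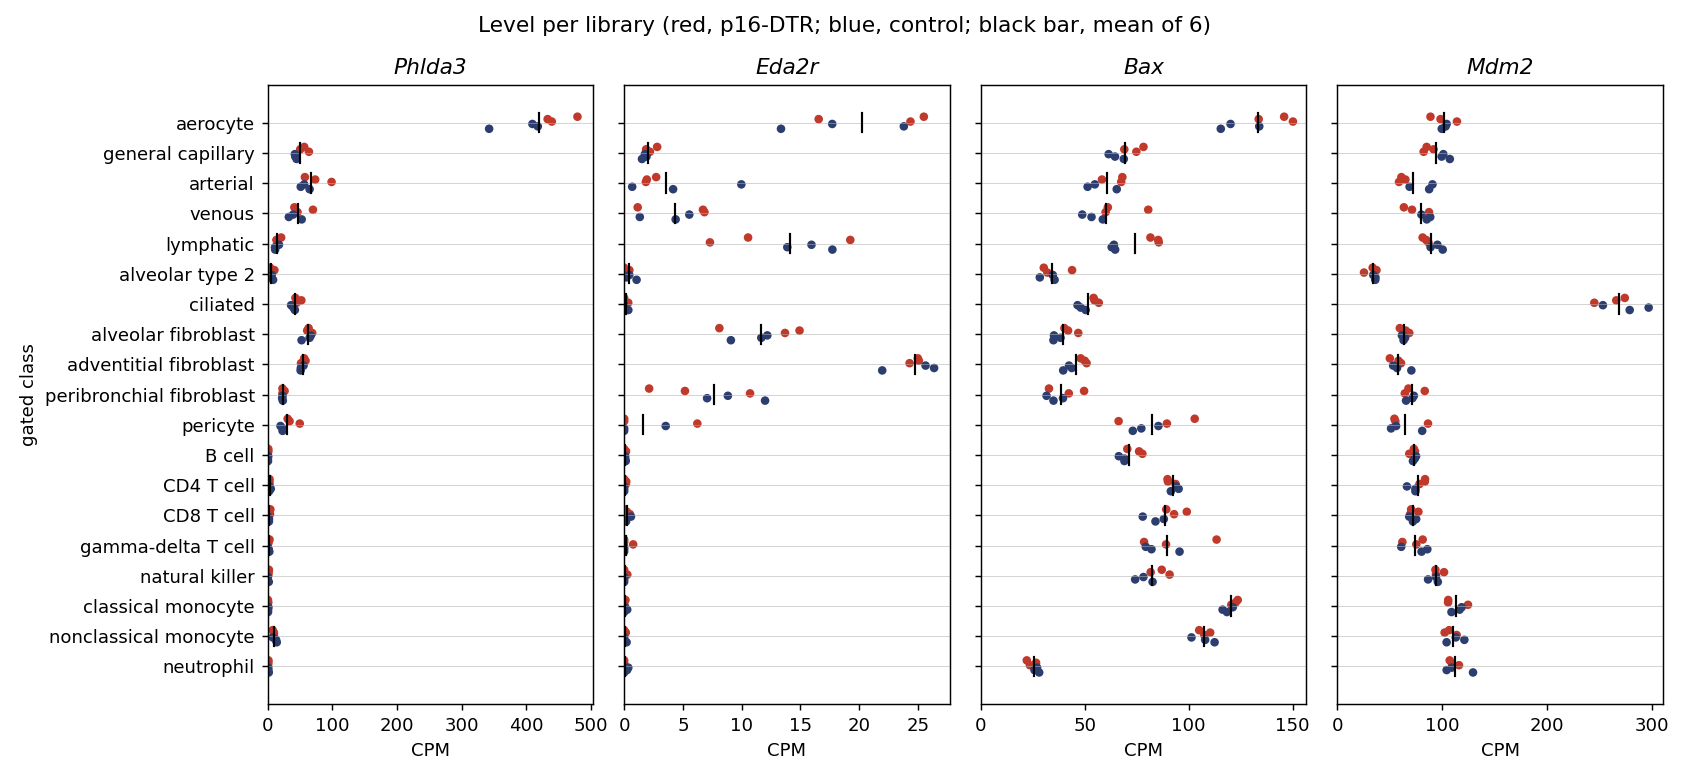
CPM of Phlda3, Eda2r, Bax and Mdm2 (x axes, each from 0) in each of the 19 tested classes (rows); points are libraries, red labelled p16-DTR and blue control, and the black bar is the mean of 6. The aerocyte points of Phlda3 and the ciliated points of Mdm2 stand apart from all other rows, while the red and blue points of most rows overlap.

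In aerocytes, 8 of the 10 genes were called higher than the mean of the other classes and none lower, where 67.8% of all genes were called and 38.5% were called higher. The median of the 10 log2 differences was 0.77, beside -0.04 over all genes tested. The differences were 5.43 for Phlda3, 4.84 for Eda2r, 1.32 for Zmat3, 1.23 for Aen, 1.03 for Bax, 0.50 for Sesn1, 0.43 for Trp53inp1 and 0.26 for Mdm2. Ccng1 (0.12, adjusted p 0.076; called with library size alone at 0.16, adjusted p 0.0214) and Sesn2 (-0.04, adjusted p 0.894) were not called. Trp53inp1 was not called when every cell was given its best-scoring class (0.18, adjusted p 0.0569). In alveolar fibroblasts, by comparison, 6 of the 10 were called higher and 2 lower, where 76.6% of genes were called and 8286 of 16892 were called higher. The median of the 10 log2 differences there was 0.71, beside 0.17 over all genes tested.

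Cdkn1a, the gene of the cell cycle inhibitor p21 and a p53 target outside the list, was also highest in aerocytes, at 1129.6 ± 209.6 CPM, with general capillary cells at 592 ± 192 and B cells lowest at 19.7 ± 4.46. Trp53, which encodes p53, had another order: CD8 T cells were highest at 124 ± 5.55, aerocytes had 64.6 ± 1.12, and ciliated cells (14.8 ± 0.863) and neutrophils (15 ± 2.51) were lowest. In CPM by library size, Mdm2 and Sesn2 were thus highest in the 2 classes with the least Trp53 RNA. Over the 19 classes, Pearson's r of the mean log2 level with Cdkn1a was 0.55 for Phlda3 and 0.45 for Eda2r, and r with Trp53 was 0.74 for Sesn1, 0.62 for Aen and 0.62 for Bax. Negative values were r of -0.45 for Sesn1, -0.41 for Trp53inp1 and -0.38 for Ccng1 with Cdkn1a, and -0.55 for Sesn2 and -0.31 for Mdm2 with Trp53. These are descriptions over 19 classes that share their 6 libraries and differ in depth.

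The 10 genes did not form 1 pattern over the classes. The most alike were Zmat3 and Aen (r = 0.84), Phlda3 and Eda2r (0.75) and Sesn1 and Aen (0.71), and the least alike were Ccng1 and Phlda3 (-0.49). The genes whose class pattern was most like each member were taken among genes with a mean of at least 10 CPM. For Mdm2 these were Ttll3 (0.90) and Cfap43 (0.89), for Ccng1 Fbxo33 (0.79) and Adcy7 (0.79), and for Bax Dr1 (0.95) and Lypla1 (0.91). Those of Phlda3 were Prickle2 (0.93) and Acvr1b (0.92), those of Trp53inp1 Lat (0.80) and Ankrd12 (0.80), and those of Sesn1 Pou2f1 (0.93) and Clasrp (0.91). Sesn2 was closest to Pfkfb4 (0.81) and Card9 (0.78), Eda2r to Dpysl3 (0.93) and Fgfr1 (0.92), Zmat3 to Gnptg (0.91) and Cbx5 (0.91), and Aen to Ndufaf4 (0.94) and Surf2 (0.93). No member was among the 2 closest genes of another.

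When cells were summed by lineage and each lineage was tested against the mean of the other 3, 30 of 40 pairs of a gene and a lineage were called, beside 83.2% of all pairs. In immune cells (87.0% of genes called), Bax (1.02) and Sesn2 (1.47) were higher and Phlda3 (-3.94) and Eda2r (-4.67) lower, in log2 units. Endothelial cells (80.6% called) were higher in Phlda3 (2.58) and Eda2r (2.70) and lower in Ccng1 (-0.83), Trp53inp1 (-1.09) and Sesn2 (-1.54). Mesenchymal cells (83.0% called) had Eda2r at 4.54 and Phlda3 at 1.61. Epithelial cells (82.3% called) had Mdm2 at 0.65 and Sesn1 at -1.57.

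The second question was whether these levels differed between the lungs labelled p16-DTR and the control lungs. Summed over all retained cells of a library, none of the 10 genes was called. Bax, at 71, 73.1 and 77 CPM under the p16-DTR label and 55.7, 65.4 and 63.4 among controls, came nearest (log2 fold change 0.31, standard error 0.07, edgeR adjusted p 0.13), and its groups did not overlap. Neither did those of Ccng1 (30.9, 33.1 and 31.9 against 29.7, 30.7 and 29.3 CPM, libraries labelled p16-DTR first), Aen (15, 16.5 and 15.3 against 14.3, 14.4 and 14 CPM) or Sesn2 (12.5, 11.3 and 12.1 against 10.7, 10.2 and 10.7 CPM). In these sums, fewer cells of a type and less RNA per cell cannot be told apart.

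Of 21630 genes tested over all cells, edgeR's quasi-likelihood test called 0 (0.0%), while 5043 had an unadjusted p under 0.05 and DESeq2 called 2769, among them Ccng1, Bax, Sesn2 and Aen. The log2 fold change was above 0 for 9 of the 10 genes, with a median of 0.16, beside -0.01 over all genes. The non-overlapping higher groups of Ccng1, Bax, Sesn2 and Aen are 4 of 10, against 8.58% of all genes with every library labelled p16-DTR above every control, and 22.5% of genes had the opposite. Trp53inp1, at 99.1, 85.7 and 102 against 60.6, 89.7 and 80.7 CPM, had the largest fold change (0.36, adjusted p 0.21), but control replicate 2 lay above the lowest library labelled p16-DTR. Zmat3 (0.19, adjusted p 0.192), Sesn1 (0.07, adjusted p 0.529), Phlda3 (0.03, adjusted p 0.873) and Mdm2 (0.01, adjusted p 0.896) overlapped, as did Eda2r, the only one below 0 (-0.29, adjusted p 0.404).

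Within lineages, 28 of 65969 pairs of a gene and a lineage were called (0.0424%), and none was a member. Bax had a positive fold change with groups that did not overlap in each lineage: 0.21, adjusted p 0.0926 in endothelial cells, 0.20, adjusted p 0.388 in epithelial cells, 0.26, adjusted p 0.102 in mesenchymal cells and 0.14, adjusted p 0.462 in immune cells. The share of all genes with such groups was 8.04%, 4.15%, 10.3% and 5.54% in the same order. Aen in mesenchymal cells (0.35, adjusted p 0.0817), Zmat3 in endothelial cells (0.26, adjusted p 0.101) and Ccng1 in immune cells (0.16, adjusted p 0.436) were the other members with the libraries labelled p16-DTR all higher. Mdm2 (-0.16, adjusted p 0.114) and Sesn1 (-0.05, adjusted p 0.499) were lower in all libraries labelled p16-DTR in endothelial cells, where 22.3% of genes were. The test of the difference between lineages called 160 of 19872 genes (0.805%) and 0 of the 10, whose adjusted p ran from 0.269 for Trp53inp1 to 0.967 for Phlda3. Leaving out 1 library gave 9 (without p16-DTR replicate 3) to 121 genes, below the 160 in each of the 6 cases.

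Within the 19 classes, 1 of 173 tested pairs of a member and a class was called, Trp53inp1 in CD4 T cells, beside 1399 of 224397 pairs over all genes (0.623%). The log2 fold change was above 0 in 128 of the 173 pairs (74.0%), with all genes at 49.8%, and in 120 pairs when libraries were scaled by their size alone. In 35 of the 173 pairs all libraries labelled p16-DTR were above all controls and in 11 all were below, against 7.76% and 11.1% of all pairs. Classes share the 6 mice, so these pairs are not independent of each other. Bax was above 0 in 17 of 19 classes (median 0.17, range -0.11 to 0.39), Trp53inp1 in 17 of 19 (median 0.30), Zmat3 in 16 of 19 (median 0.35) and Ccng1 in 15 of 19 (median 0.15). For Aen the number was 14 of 19, for Phlda3 13 of 16, for Sesn2 12 of 17 and for Eda2r 5 of 7. Sesn1, with 10 of 19, and Mdm2, with 9 of 19, had medians of 0.01 and -0.00.

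**Figure D3:**
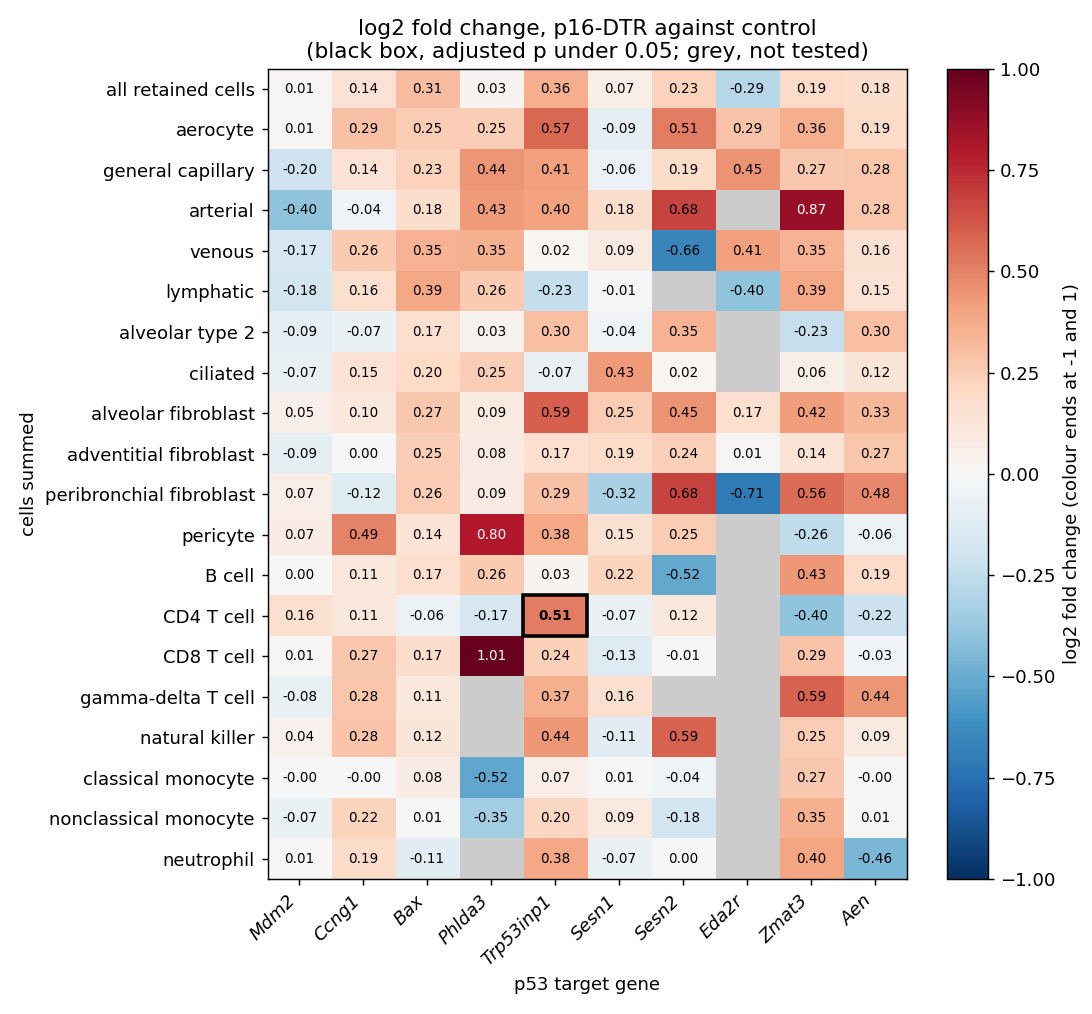
Log2 fold change of each p53 target gene (columns), libraries labelled p16-DTR against controls, over all retained cells and in each of the 19 tested classes (rows); red is higher and blue lower in the libraries labelled p16-DTR, grey was not tested, and the black box marks an adjusted p under 0.05. Red is the more frequent colour, 128 of 173 class values being above 0, and the only box is Trp53inp1 in CD4 T cells at 0.51.

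Trp53inp1 rose in CD4 T cells, where 584 of 11606 genes were called (5.03%). Its values were 398, 369 and 417 CPM under the p16-DTR label and 283, 289 and 247 among controls. The lowest library labelled p16-DTR lay well above the highest control, and the means were 395 ± 24.3 and 273 ± 22.6 (n = 3 in each group, SD), with log2 fold change 0.51, standard error 0.08, edgeR adjusted p 0.0118. The call held with the replicate number as a block (0.51, adjusted p 0.0341) and without each library in turn (0.44 to 0.56, adjusted p 0.0183 to 0.0447). It was lost when every cell was given its best-scoring class (0.33, adjusted p 0.154). The other 8 members tested in CD4 T cells were not called. Mdm2 was higher in all libraries labelled p16-DTR (0.16, adjusted p 0.322), as were 14.3% of genes, and Zmat3 (-0.40, adjusted p 0.198) and Aen (-0.22, adjusted p 0.477) were lower in all, as were 10.8%.

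RNA of some T cell subset markers in the CD4 T cells differed between the groups at the same time. A change in cell make-up and a change in RNA per cell cannot be told apart here. A list of 6 genes of interleukin 17 producing T cells was written after the calls had been seen. Of the 5 reported here, 4 fell in the libraries labelled p16-DTR: Il17a (-4.33, adjusted p 0.0243), Il17f (-5.74, adjusted p 0.00162), both cytokines, and Il23r (-2.39, adjusted p 0.0236) and Il1r1 (-2.88, adjusted p 0.00595), both cytokine receptors. Ccr6 was not called (-1.98, adjusted p 0.0719). Of 4 regulatory T cell genes, Il2ra, a cytokine receptor chain, fell (-1.10, adjusted p 0.00461), Ikzf2, a transcription factor, rose (0.46, adjusted p 0.0153), and Foxp3 and Ctla4 were not called. Of 6 naive T cell genes, 1 fell, the transcription factor gene Tcf7 (-0.37, adjusted p 0.0331), and the others were not called. The summed markers of 3 lists also stood apart between the groups in CD4 T cells, while those of 7 epithelial and 7 mesenchymal markers overlapped. The 7 endothelial markers summed to 281 to 305 CPM under the p16-DTR label and 374 to 407 among controls, the 7 immune markers to 6711 to 7002 and 6069.8 to 6233, and the 6 alveolar type 1 markers to 155 to 197 and 93.4 to 136. Their part in the result for Trp53inp1 was not tested. The summed level of the list was 32.2 to 219 CPM under the p16-DTR label and 672 to 1032 among controls. Cells with at least 1 UMI of the list made up 21.9%, 7.76% and 15.7% of CD4 T cells under the p16-DTR label, compared with 44.1%, 52.6% and 40.1% in control mice. With each cell thinned to 5000 UMIs, 15 shallower cells left out (9 under the p16-DTR label, 6 among controls), the shares were 5.80% to 17.04% and 34.6% to 48.5%. Neutrophils, which are shallower (median 8678 to 10138 UMIs against 13510.0 to 16377.5 in CD4 T cells), had such a UMI in 4.40% to 6.85% of cells. Ccr6 and Il1r1 are also expressed outside T cells. A list UMI was found in 45.2% to 58.7% of B cells, 62.0% to 67.3% of aerocytes and 43.3% to 49.9% of general capillary cells. How many of the CD4 T cells with a list UMI make interleukin 17 was not tested.

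Trp53inp1 was lower in the CD4 T cells with a list UMI than in those without in 5 of 6 libraries. The cells with a list UMI had 268, 374 and 344 CPM under the p16-DTR label and 131, 126 and 150.2 among controls, and these groups did not overlap. They numbered 49, 27 and 68 cells under the p16-DTR label and 105, 163 and 168 among controls. The share of all genes with such groups in these cells was not counted. CD4 T cells without a list UMI had 443, 369 and 434 against 425, 483 and 325, with means of 415 ± 40.4 and 411 ± 80.3 (SD, n = 3 each). Without a list UMI the groups overlapped, and the log2 fold change was -0.01 (adjusted p 0.993). Beside it, 5 of 15 genes of a dissociation stress list fell in CD4 T cells, with a summed level of 4191 to 4495 against 5219 to 5401 CPM, and their part in the result was not tested. The CD4 gate asked for all 4 of its markers, so all 1972 cells were at its minimum. A further 4245 immune cells were 1 marker short. That count covers all immune classes, and CD8 and gamma-delta T cells, which share markers with this gate, can be in it.

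**Figure D4:**
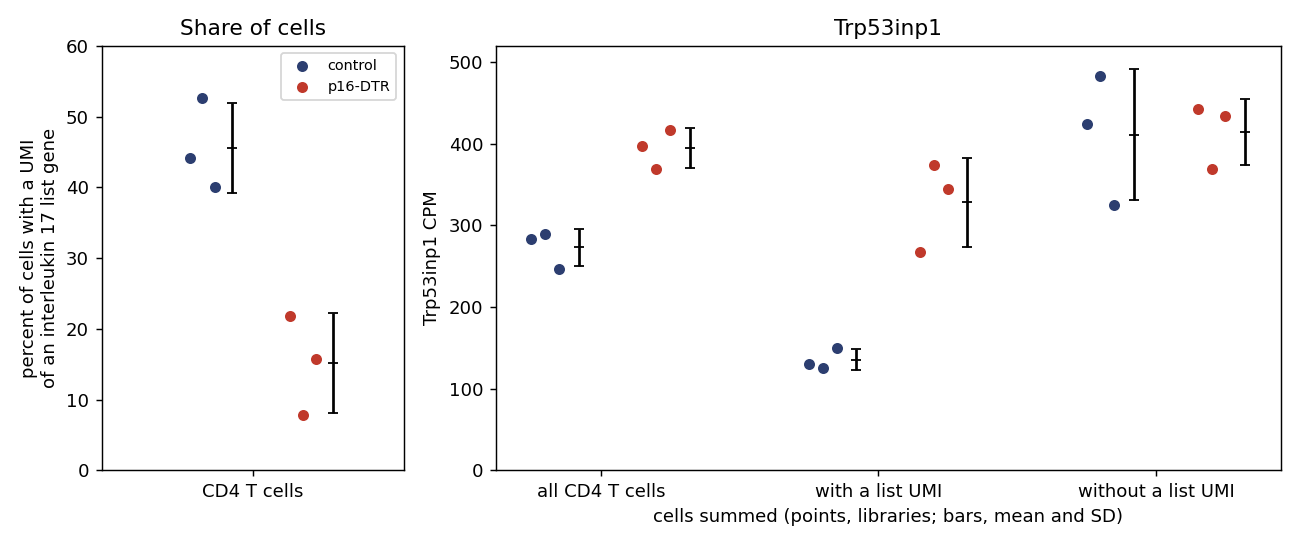
Left, percent of CD4 T cells with a UMI of an interleukin 17 list gene; right, Trp53inp1 in CPM in all CD4 T cells and in those with and without such a UMI. Points are libraries (red labelled p16-DTR, blue control) with mean and SD; the groups are apart in all CD4 T cells (369 to 417 against 247 to 289) and in those with a list UMI (268 to 374 against 126 to 150.2), and overlap in the cells without one.

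General capillary cells, the most numerous class with 22288 cells, had 301 of 16082 genes called (1.87%) and no member among them. Phlda3 came nearest, at 56.7, 50.5 and 64 CPM under the p16-DTR label and 42.2, 42.9 and 45 among controls. Its groups did not overlap (log2 fold change 0.44, standard error 0.09, edgeR adjusted p 0.0509), and it passed the threshold without p16-DTR replicate 2 (0.53, adjusted p 0.0427), with 1 more marker asked for (0.47, adjusted p 0.0480), with best-scoring classes (0.40, adjusted p 0.0477) and with DESeq2 (0.44, adjusted p 5.00e-04). Ccng1 (0.14, adjusted p 0.16), Bax (0.23, adjusted p 0.0961), Zmat3 (0.27, adjusted p 0.101) and Aen (0.28, adjusted p 0.11) were likewise higher in all libraries labelled p16-DTR, 5 of 10 members where 9.04% of genes were. Beside these, the 7 endothelial markers summed to 15509.8 to 15779 CPM under the p16-DTR label and 13988 to 14557 among controls, while the sums of the epithelial, mesenchymal, immune and alveolar type 1 markers overlapped. Of the 15 dissociation stress genes, 2 were above 0 and 7 had an unadjusted p under 0.05, as had 7 of the 10 members. The share of all genes at that p is not given here. The part of the endothelial markers or of the dissociation stress list in the result was not tested. Mdm2 went the other way, at 85.1, 91.7 and 82.3 against 101, 99.4 and 107 CPM (-0.20, adjusted p 0.085), as did Sesn1 (-0.06, adjusted p 0.455), where 20.8% of genes were lower in all. DESeq2 also called Mdm2 lower (-0.20, adjusted p 0.0417) and Bax higher (0.24, adjusted p 0.0401) in these cells.

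In aerocytes, the class with the highest mean CPM of 4 of the 10 genes, 97 of 12244 genes were called (0.792%) and again no member. Without the filter on low counts, edgeR called Trp53inp1 (0.56, adjusted p 2.69e-04), Bax (0.24, 0.0317), Phlda3 (0.24, 0.0335) and Zmat3 (0.35, 0.0336) in aerocytes. That setting called 1.91% of all pairs of a gene and a class. In the main fit the log2 fold change was above 0 for 9 of 10, with a median of 0.27 beside -0.00 over all genes. Beside these, the 7 immune markers summed to 81.3 to 83.9 CPM in aerocytes under the p16-DTR label and 90.2 to 93.3 among controls. Of the 15 dissociation stress genes 0 were called by edgeR (8 at an unadjusted p under 0.05, beside 6 of the 10 members) and 4 were above 0, with sums of 5542 to 6366 and 6154 to 8049 CPM. Their part in the result was not tested. Zmat3 (0.36, adjusted p 0.111), Phlda3 (0.25, adjusted p 0.181) and Sesn2 (0.51, adjusted p 0.188) were higher in all libraries labelled p16-DTR, as were 7.11% of genes. Trp53inp1 had the largest fold change (0.57, adjusted p 0.203), at 113, 82.7 and 135 CPM under the p16-DTR label and 59.3, 97.7 and 67.5 among controls, and control replicate 2 was within the range of the other group. Control replicate 2 also overlapped with the other group in alveolar fibroblasts, at 158, 109.8 and 161 against 64.4, 125 and 99 CPM (0.59, adjusted p 0.193; 0.37 without control replicate 1 and 0.85 without control replicate 2). Bax (0.27, adjusted p 0.0827) and Aen (0.33, adjusted p 0.084) were higher in all libraries labelled p16-DTR in alveolar fibroblasts, where 1.3% of genes were called and 11.3% were higher in all. Beside these, 3 of 15 dissociation stress genes were above 0 there and 0 were called by edgeR (7 at an unadjusted p under 0.05, beside 4 of the 10 members), with overlapping sums of 10554 to 11741 and 11738 to 14216 CPM, and their part in the result was not tested. Zmat3 there had 0.42, adjusted p 0.10, and it passed the threshold without p16-DTR replicate 1 (0.55, adjusted p 0.0452).

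Of 36 further p53 targets listed beside the members, 35 were measured, and over the 19 classes they gave 533 tests, of which 1 was called higher and 8 lower, beside 550 higher and 849 lower among the 224397 pairs over all genes. Those 9 calls were in 6 genes. In general capillary cells Bbc3, which encodes the apoptosis inducer Puma, rose (25.7, 25.4 and 27.2 against 17.7, 20.9 and 20.9 CPM, labelled p16-DTR first; 0.44, adjusted p 0.046). In the same cells 4 genes fell: Plk2 (316, 381 and 339 against 584, 521 and 563 CPM; -0.64, adjusted p 0.0241) and Plk3 (-0.63, adjusted p 0.046), polo-like kinases, Gadd45a (-0.53, adjusted p 0.046), a growth arrest gene, and Btg2 (-0.59, adjusted p 0.0469), an antiproliferative gene. Beside these, the 15 genes of the dissociation stress list summed to 6077 to 7260.01 CPM under the p16-DTR label and 7948 to 10728 among controls, 1 of them being called (Egr1, lower), and their part in the result was not tested. Leaving out 1 library ended the calls of Bbc3 and Gadd45a in 6 of 6 cases (adjusted p up to 0.132 and 0.13). It ended that of Plk3 in 5 (up to 0.134, kept without p16-DTR replicate 2), that of Btg2 in 5 (up to 0.135, kept without control replicate 2) and that of Plk2 in 4 (up to 0.0849, kept without replicate 2 of either group). With best-scoring classes Gadd45a (adjusted p 0.129), Bbc3 (0.0523) and Plk3 (0.0513) were not called, and with 1 more marker asked for Gadd45a (0.0674), Plk3 (0.0503) and Btg2 (0.0503) were not. The replicate number as a block ended each of the calls named here in general capillary cells.

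Plk2 also fell in venous cells (-0.86, adjusted p 0.0245) and alveolar type 2 cells (-0.76, adjusted p 0.0294), and without 1 library each of these calls was kept only when control replicate 2 was the one left out (adjusted p up to 0.112 and 0.17 otherwise). In venous cells 3 of the 15 dissociation stress genes fell and 2 of 15 were above 0, with sums of 10139 to 12239.7 CPM under the p16-DTR label and 13285 to 14699 among controls. In alveolar type 2 cells 0 of 15 were called, and the sums, 5227 to 5913 and 5639 to 7695, overlapped. The part of these genes in the Plk2 calls was not tested. With the replicate number as a block the Plk2 call in alveolar type 2 cells was lost (edgeR adjusted p 0.0587). The remaining 2 calls were in CD4 T cells. Cdkn1a fell there, at 31.4, 44.3 and 49.3 CPM under the p16-DTR label and 84.3, 124 and 81.2 among controls (log2 fold change -1.22, standard error 0.19, edgeR adjusted p 0.0124; not called with best-scoring classes, -0.88, adjusted p 0.104), and so did Plk3 (-0.76, adjusted p 0.00961). In CD4 T cells without an interleukin 17 list UMI the log2 fold changes were 0.23 for Cdkn1a (adjusted p 0.626) and 0.45 for Plk3 (adjusted p 0.281). In those with a list UMI, Cdkn1a stood at 41.7, 41.7 and 68.9 CPM under the p16-DTR label and 136, 201 and 144 among controls, groups that did not overlap, and without one at 27.8, 44.6 and 44.9 against 36.6, 32.4 and 31.3. The cells with a list UMI numbered 49, 27 and 68 under the p16-DTR label, and the share of all genes with such groups in them was not counted. Outside CD4 T cells Cdkn1a was not called: it had 1312, 1087 and 1422 against 963, 1130.5 and 863 CPM in aerocytes (0.41, adjusted p 0.131) and 0.63 in general capillary cells (adjusted p 0.157). Its groups did not overlap, p16-DTR lower, in classical monocytes (459, 457 and 433 against 613, 515 and 472 CPM; -0.22, adjusted p 0.492) and gamma-delta T cells (153, 164 and 113 against 203, 174 and 216 CPM; -0.49, adjusted p 0.655). Of all genes, 12.1% in classical monocytes and 5.13% in gamma-delta T cells were likewise lower in all libraries labelled p16-DTR. Trp53inp1 and Cdkn1a, both p53 targets, thus had opposite signs in the CD4 T cells as gated.

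Of 17 regulators of p53, p53 included, tested 270 times over the classes, 8 calls were higher and none lower, where 0.623% of all pairs were called. Cdkn2a, whose locus also encodes the Mdm2 inhibitor Arf, made up 7 of them: alveolar fibroblasts (5.20, adjusted p 3.40e-04), ciliated cells (6.12, adjusted p 0.00546), natural killer cells (7.66, adjusted p 0.00618), CD4 T cells (2.13, adjusted p 0.0172), general capillary cells (2.92, adjusted p 0.0241), lymphatic cells (7.09, adjusted p 0.0277) and B cells (4.40, adjusted p 0.0352). All 7 were higher in the libraries labelled p16-DTR, against the direction the label gives. Leaving out 1 library at a time kept the call in alveolar fibroblasts in 6 of 6 cases, in ciliated cells in 5 (lost without control replicate 1, adjusted p 0.0526) and in natural killer cells in 5 (lost without control replicate 3, 0.0685). It was kept in 3 of 6 in general capillary cells (up to 0.0645) and lost without p16-DTR replicate 1 or 3 or control replicate 3. It was kept in 2 of 6 in CD4 T cells (up to 0.0687), without p16-DTR replicate 3 or control replicate 2. In lymphatic cells (up to 0.114) and B cells (up to 0.337) it was kept in 1 of 6, without p16-DTR replicate 1 and control replicate 1 respectively. With best-scoring classes it was lost in CD4 T cells (adjusted p 0.0662), lymphatic cells (0.114) and B cells (0.0544). The replicate number as a block ended it in general capillary, lymphatic and B cells. Cop1, which encodes another ubiquitin ligase of p53, rose in peribronchial fibroblasts (215, 276 and 251 against 149, 151 and 152 CPM; 0.74, adjusted p 0.036), a call kept without p16-DTR replicate 1 and lost without each of the others (adjusted p up to 0.188) and with best-scoring classes (0.44, adjusted p 0.12). Trp53 itself was called in no class. A cell cycle list of 10 genes gave 0 calls in 103 tests, and the dissociation stress list 1 higher and 12 lower in 281.

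Cdkn2a RNA was found in aerocytes of both groups, which allowed the p53 targets to be compared within a library. A Cdkn2a UMI was detected in 24.1%, 19.7% and 19.0% of aerocytes under the p16-DTR label and in 13.8%, 20.5% and 18.4% of those of control mice. CD4 T cells had such a UMI in 16.9% to 21.0% of cells under the p16-DTR label and 3.10% to 7.42% among controls. In B cells the shares were 13.1% to 18.8% and 0.229% to 1.05%, and in general capillary cells 3.56% to 5.05% and 0.400% to 0.789%. Neutrophils, a shallower class, had 0.70% to 3.61% and 0%. Detected cells had a median of 21267 to 23575 UMIs and the others 20938 to 22791.5. With Cdkn2a left out, 12 of 10735 genes were called (0.112%), 614 having an unadjusted p under 0.05, and no member was among the 12. All 10 members had log2 differences above 0, from 0.04 to 0.54, with a median of 0.25 beside 0.00 over all genes.

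Bax had 151, 162 and 188 with and 144, 126 and 140.3 without a Cdkn2a UMI under the p16-DTR label, and 121, 151 and 134 with and 120.1, 129 and 111 without among controls. It was thus higher with a Cdkn2a UMI in 6 of 6 libraries (0.24, adjusted p 0.0964), as were Eda2r (0.54, adjusted p 0.176) and Trp53inp1 (0.25, adjusted p 0.233). Eda2r had 30, 23.7 and 29.1 with and 24, 14.7 and 23.1 without a Cdkn2a UMI under the p16-DTR label, and 19.7, 28 and 25.3 with and 17.4, 22.6 and 10.5 without among controls. Phlda3 (0.19, adjusted p 0.233), Aen (0.32, adjusted p 0.481), Ccng1 (0.30, adjusted p 0.431) and Zmat3 (0.20, adjusted p 0.918) were higher in 5 of 6, Sesn2 in 4, and Mdm2 and Sesn1 in 3. The share of all genes higher with a Cdkn2a UMI in 6 of 6 or 5 of 6 libraries was not counted, so these numbers have no background beside them. Bax (0.27, adjusted p 0.0461) and Phlda3 (0.23, adjusted p 0.0251) passed the threshold without control replicate 1. With aerocytes thinned to 5000 UMIs, Mdm2 was below 0 (-0.04), Trp53inp1 was at 0.03, higher in 3 of 6 libraries, and Bax at 0.46 (adjusted p 0.0645), higher in 6 of 6. Sesn2 was then too low to test, with a mean of 6.45 CPM in detected and 10.1 in other cells and higher with Cdkn2a in 2 of 6 libraries, and Eda2r was higher in 4 of 6. Cdkn1a was among the 12 genes called (0.20, adjusted p 0.0258), higher in 5 of 6 libraries, and at 0.30 after thinning (adjusted p 2.01e-04). Leaving out 1 library at a time ended the call in 5 of 6 cases (adjusted p 0.0709 to 0.106), and it was not called in the control libraries alone (0.16, adjusted p 0.442).

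**Figure D5:**
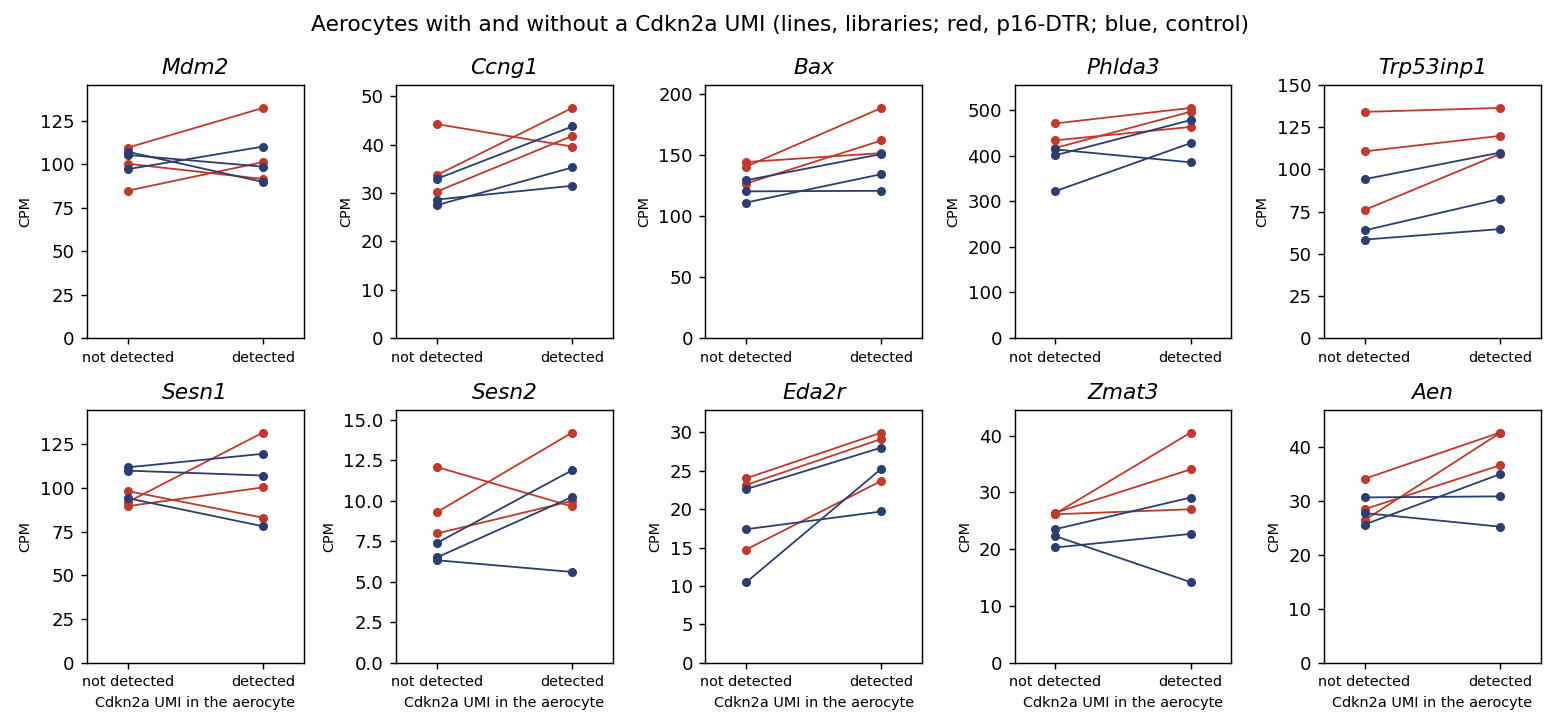
CPM of each p53 target gene (panels, y axes from 0) in aerocytes without and with a Cdkn2a UMI; each line joins the 2 values of 1 library, red labelled p16-DTR and blue control. The lines of Bax, Eda2r and Trp53inp1 go up in 6 of 6 libraries, and those of Mdm2 and Sesn1 in 3 of 6. The share of all genes that go up in 6 of 6 was not counted.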

How the data were processed

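Lungs of 6 mice were profiled, 1 library each, in 2 groups of 3. The authors deposited raw UMI counts per gene and barcode, made with Cell Ranger 8.0.1 and mm10 per the submitters' processing notes. Library totals are given with the results and set the precision of each level.

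Barcodes with at least 300 genes, 500 UMIs and at most 15% mitochondrial UMIs were kept. A cell joined a lineage with at least 4 of its 7 markers, and a class by its markers. No doublet caller was run. Counts were summed per library and class and tested with edgeR 4.0.16 in R 4.3.3 (quasi-likelihood, TMM, filterByExpr, Benjamini-Hochberg over all genes of a fit, threshold 0.05); DESeq2 1.42.0 was an alternative. Standard errors came from the F statistic. Positions are GENCODE M21 (GRCm38), which matched 30934 features. The test between classes and the interleukin 17 alternative were chosen after seeing the data. One gene of the interleukin 17 list counts in its sums and shares and is not reported here on its own. The 10 genes and all lists were chosen with earlier results of these data known. Named besides the 10 were Trp53, Cdkn1a, up to 12 genes of the target and regulator lists called in a class or lineage, and the 2 genes closest in pattern to each. Genes of the T cell and dissociation lists, such as Il17a, Il2ra and Egr1, were named after their values were seen. The deviations of same-numbered replicates had correlations of 0.29, -0.05 and 0.31 over all cells and 0.41, 0.09 and 0.29 in immune cells; since not every one was over 0.1, the numbers were not treated as pairs.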

Additional observations from a re-analysis of the deposited data

Results flagged for a closer look

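The group difference of Plk2, a p53 target that encodes a polo-like kinase, differed between lineages (interaction test, edgeR adjusted p 0.0474). Without 1 library the call was kept without p16-DTR replicate 2 (0.0276) and lost without each of the others (0.0763 to 0.213). Its log2 fold changes, libraries labelled p16-DTR against controls, were -0.53 in endothelial cells, -0.59 in epithelial cells, -0.12 in mesenchymal cells and 0.18 in immune cells, and none of the 4 was called within its lineage (adjusted p 0.0571, 0.241, 0.292 and 0.534).

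Cdkn2a, the gene of p16 and of the Mdm2 inhibitor Arf, also differed between lineages (adjusted p 0.0143), a call lost without p16-DTR replicate 3 (0.118) and without control replicate 3 (0.084) and kept without each of the others (0.0214 to 0.0449). Its log2 fold changes, p16-DTR label against control, were 0.49 in endothelial cells (adjusted p 0.266), 5.02 in epithelial cells (0.0232), 3.86 in mesenchymal cells (0.0588) and 3.08 in immune cells (0.240). The epithelial call was kept without p16-DTR replicate 1 and lost without each of the other libraries (adjusted p up to 0.132). None of the 10 p53 targets differed between lineages by this test.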

How the results depend on the processing

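DESeq2 called 4 of the 10 genes over all cells (Ccng1, Bax, Sesn2, Aen), 4 pairs of a gene and a lineage (Bax and Zmat3 in endothelial, Bax and Aen in mesenchymal cells) and 7 of 173 pairs within classes, against 0, 0 and 1. It called 12.8% of all genes over all cells, 5.09% of pairs over all genes within lineages and 2.44% within classes. Without the filter on low counts, 8 pairs were called within classes (1.91% of pairs over all genes) and 4 genes in the comparison of aerocytes by Cdkn2a (69 of 20783 over all genes). Leaving out 1 library gave 1 to 3 pairs within classes and 0 to 2 genes in the Cdkn2a comparison, the highest without p16-DTR replicate 2 (which added Phlda3 in general capillary cells and Trp53inp1 in natural killer cells, 0.55) and without control replicate 1. Asking for 1 more marker gave 2 pairs, where 0.646% of pairs over all genes were called. The CD4 gate already asked for all its markers, so Trp53inp1 in CD4 T cells was the main fit again and not a separate result. Without the interleukin 17 list cells, an alternative run in CD4 T cells alone, 0 of 9 tested members were called there by edgeR (0 at an unadjusted p under 0.05), where 89 of 10671 genes were (0.834%), and Trp53inp1 (-0.0056), Cdkn1a (0.23) and Plk3 (0.45) changed sign in CD4 T cells. With the replicate block the count within classes was 1, and Trp53inp1 in CD4 T cells kept its call at 0.51 (adjusted p 0.0341); the block changed no call of a member, and it ended those of Bbc3, Plk2, Plk3, Btg2, Gadd45a and Cdkn2a in general capillary cells (adjusted p 0.0553 to 0.12), Plk2 in alveolar type 2 cells (0.0587) and Cdkn2a in B (0.0626) and lymphatic cells (0.0578). Over all cells, 2 of 3 numbers were closest to their own.

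Between classes, library size alone or best-scoring classes changed 23 signs, 3 of them of called pairs and 1 of a pair called in both directions (Aen in peribronchial fibroblasts). Of the 23, 5 were called by edgeR in the alternative. With best-scoring classes these were Aen, Ccng1 in peribronchial fibroblasts (0.43, adjusted p 3.2e-09), Bax in pericytes (-0.36, 1.9e-07) and Phlda3 in nonclassical monocytes (-0.33, 0.0155). With library size alone it was Bax in lymphatic cells (0.18, 0.00501). Among uncalled values near 0 that changed sign were Mdm2 in aerocytes (-0.0303 with library size alone, -0.0449 with best-scoring classes, -0.0846 to 0.0921 without 1 library), Mdm2 by Cdkn2a (-0.0357 thinned, -0.0424 in controls alone, -0.00916 to 0.102 without 1 library), Sesn1 by Cdkn2a (-0.029 in controls alone, -0.0422 to 0.12 without 1 library), Ccng1 in aerocytes against other classes (-0.0222 with best-scoring classes), and in alveolar fibroblasts Phlda3 (-0.0186 to 0.151 without 1 library, below 0 without control replicate 3) and Eda2r (-0.00219 to 0.395, below 0 without p16-DTR replicate 2).

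Counts over all genes moved more: within classes 1399 of 224397 became 5466 with DESeq2, 7354 of 385166 without the filter and 375 to 1156 without 1 library, and within lineages 28 of 65969 became 3360, 587 of 98065 and 0 to 180, with 51 by library size alone and 7 with the block. The tests between classes were not run without single libraries. Rare classes had few cells (555 pericytes in all), and the size of difference that could be detected in them was not tested.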
